A study of Mus musculus with 14 samples.

Results

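Bulge stem cells sorted from depilated dorsal skin of 2-month-old mice had higher levels of cell division and immediate early genes than those of resting skin. Of 28 markers of the bulge tested 10 fell, Cd34, Krt15, Krt24 and Fgf18 among them, 2 rose and the others were not called. The comparison rests on 4 of the 14 libraries of the series. The 2 telogen libraries hold bulge stem cells from skin in telogen, the resting phase of the hair cycle, and the 2 libraries called activated here hold bulge stem cells from depilated skin. Wild-type C57BL/6 mice were used for both groups, and the cells were isolated by flow cytometry and sequenced as mRNA. The other 10 libraries hold bulge stem cells of both kinds at 24 months (4 libraries), epidermis at both ages (4) and wounded epidermis (2).

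The labels do not give the time since depilation, the surface markers used in the sort or the sex of the mice. Nor do they say if each library is a mouse of its own, and a p-value here therefore covers no more than library to library spread, which may be technical. They also do not say whether the sort took in the hair germ. Expression is given as FPKM, a read level corrected for transcript length and for the size of the library. Values were summed over the transcripts of a gene and divided by 1 constant common to all libraries. Differences are on the scale of log2(FPKM + 1), as activated minus telogen, with limma's standard error (SE) and Benjamini-Hochberg adjusted p. A gene was called at an adjusted p under 0.05. This scale understates the change of genes near 1 FPKM. Levels of different genes are compared only as FPKM, which is per length.

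The bulge is the part of the hair follicle where its stem cells rest between rounds of hair growth. In telogen these cells are kept quiet by signals that include BMPs, FGF18 and inhibitors of Wnt, and they carry CD34 and keratin 15. Pulling out the hair shaft brings a resting follicle into anagen, the growth phase. In that transition the hair germ below the bulge divides first and bulge cells follow, and Wnt and Hedgehog signals act on the dividing progenitors.

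Of 12062 autosomal genes tested, 803 (6.66%) rose and 746 (6.18%) fell, and the groups of none of these 1549 genes overlapped. Counts of the gene lists below are to be read beside these shares of all genes. At least a 4-fold change on the log2(FPKM + 1) scale was found for 264 rises and 109 falls. Both activated libraries lay above both telogen libraries for 29.1% of all genes tested and below them for 35.8%, so separate groups alone say little. The median difference over all genes was -0.07 and the median SE 0.325. Rises made up 51.8% of the calls, a split that depends on the scaling. With equal library totals, which moved the median gene by 0.34, 1407 genes rose and 551 fell (71.9% rises). With quantile normalization 1067 rose and 1532 fell (41.1%). Most of the rises and most of the falls were not called in each of the 12 fits that left out 1 library. All 1549 differences kept their sign in those fits, which had to be so because none of their groups overlapped. The fewest genes were called without telogen replicate 1 or 2, but leaving out a library also changes the shared estimate of spread. The telogen pairs were the closest, with median replicate differences of 0.156 at 2 months and 0.0904 at 24 months, against 0.422 to 0.544 in the other groups. Fewer genes were also called without a 24-month telogen library, which is not in this contrast, and more without an epidermis library. The part of each was not tested. Without activated replicate 2 both rises and falls were fewer, and without activated replicate 1 the falls alone were fewer.

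Some features of the libraries have to be read beside every result. The activated and telogen libraries were split by sex-linked transcripts. Xist stood at 0.0409 and 0.0387 FPKM in the telogen libraries and 15.8 and 104.5 in the activated ones, and Y-linked Eif2s3y stood at 30.1 and 32.2 against 0.0374 and 0.0635. The depilation and this split cannot be told apart, and only autosomal genes are reported. The estimated depth was 31.9 to 37.1 mega-fragments (units of 1000000) in the 4 libraries, but the activated replicates were less alike than the telogen ones, with a correlation across genes of 0.919 against 0.984. Genes were divided into 4 equal classes by length, because the difference between the activated replicates went with transcript length (Spearman 0.54 across genes). In the length class of genes with the shortest transcripts the median difference from telogen was -0.12 in activated replicate 1 and -0.76 in replicate 2, and in the class with the longest it was 0.14 and 0.40. The share called higher was 3.08% in the shortest and 9.92% in the longest class, and the share called lower 8.18% and 3.28%. Activated replicate 1 stood apart in markers of dermis and of differentiated epidermis. Its summed FPKM over 12 dermal fibroblast markers was 513.5, against 37.6 in activated replicate 2 and 36.5 and 27.7 in the telogen libraries.

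**Figure D1:**
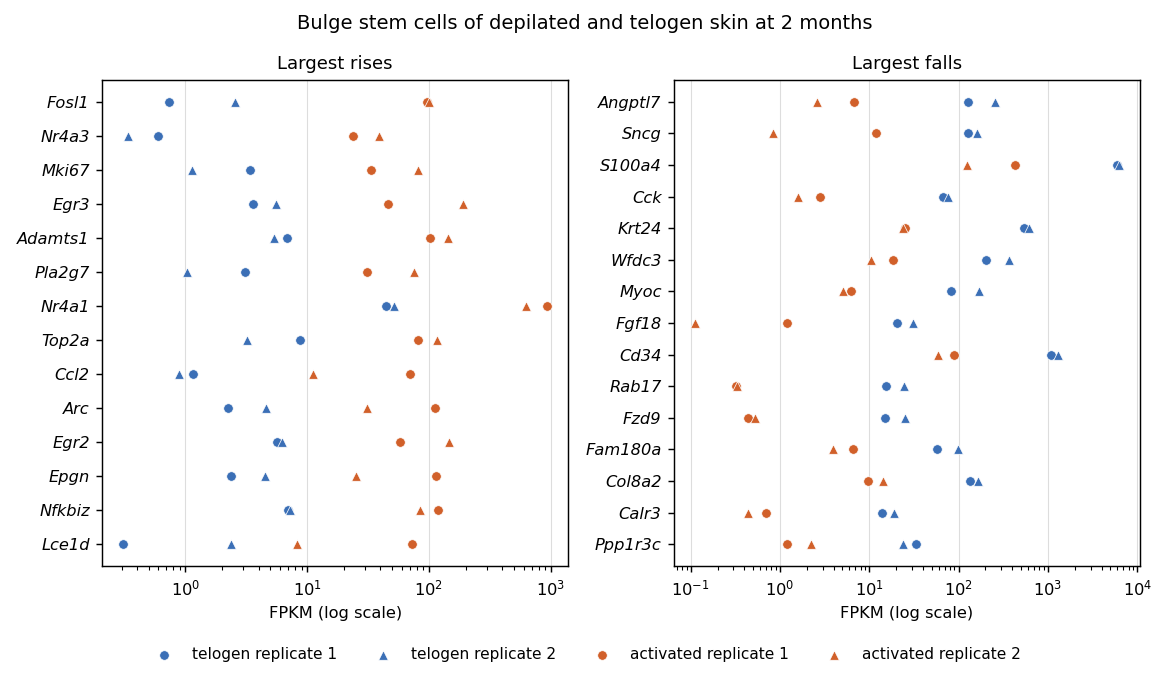
FPKM on a log axis in each of the 4 libraries for 14 of the 15 genes with the largest rises (left) and the 15 with the largest falls (right); blue marks are telogen and orange marks activated libraries, circles replicate 1 and triangles replicate 2. Only called genes with separate groups were eligible, so in all 29 the orange marks lie on 1 side of the blue ones. The genes run from Fosl1 (log2 difference 5.32) to Angptl7 (-5.11).

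Genes of G2 and mitosis formed the most uniform group. Of 49 tested, 47 rose and none fell, with a median difference of 2.92 against -0.07 over all genes, and the lowest count in any fit without 1 library was 41, without telogen replicate 2. The medians were 2.95 in activated replicate 1 and 2.93 in replicate 2. Its 2 members that were not called, named after their values were seen, are Bub3, at 43.5 and 46.8 FPKM in the telogen libraries and 48 and 39.1 in the activated ones, and Cdc25b, at 41.5 and 50.5 and 43.4 and 31.2; both were already abundant in telogen.

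Mki67, the standard marker of cycling cells, stood at 3.41 and 1.13 FPKM in the telogen libraries and 33.4 and 82 in the activated ones (log2 difference 4.13, SE 0.666, adjusted p = 0.00356). Top2a, the topoisomerase that untangles chromosomes before division, went from 8.82 and 3.24 to 81.5 and 116 (log2 difference 3.93, SE 0.411, adjusted p = 0.0004). In both genes telogen replicate 1 was above telogen replicate 2, and both activated libraries were far above either. The spindle protein Tpx2 went from 2.5 and 1.48 to 21.7 and 23 FPKM (log2 difference 2.99, SE 0.246, adjusted p = 0.000176), the microtubule depolymerase Kif2c from 1.37 and 1.02 to 17.6 and 16.2 (log2 difference 3.03, SE 0.255, adjusted p = 0.00018) and the condensin subunit Ncaph from 3.01 and 1.49 to 24.7 and 27.2 (log2 difference 3.09, SE 0.258, adjusted p = 0.000176). For these genes the activated replicates lay within a few FPKM of each other. Incenp, of the chromosomal passenger complex, had a difference of 2.66 (adjusted p = 0.000187) and Prc1, which bundles the microtubules of the central spindle, went from 6.36 and 4.1 to 38.1 and 47 FPKM (log2 difference 2.82, SE 0.253, adjusted p = 0.000244).

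Among DNA replication and S phase genes, 29 of 41 rose and none fell (median 1.76), a count that was 16 without telogen replicate 2. Mcm2, a subunit of the replicative helicase, stood at 12 and 11.1 FPKM in telogen and 52.5 and 54.9 in activated libraries (log2 difference 2.12, SE 0.337, adjusted p = 0.00324). Mcm10, which helps to activate that helicase, went from 0.607 and 0.467 to 7.42 and 9.97 (log2 difference 2.65, SE 0.251, adjusted p = 0.000284), and Cdc45, a part of the active helicase, from 3.78 and 3.33 to 20.5 and 19.4 (log2 difference 2.20, SE 0.267, adjusted p = 0.000786). The activated replicates were close together and at several times the telogen level in each. Thymidine kinase Tk1, which salvages thymidine for DNA synthesis, rose by 2.83 (adjusted p = 0.000792) and the polymerase subunit Pole by 2.50 (adjusted p = 0.000693).

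The regulators that decide on entry into S phase were less uniform. Of 28 G1 cyclins, kinases, E2F and RB family members and inhibitors tested, 11 rose and 1 fell (median 0.80); the number that rose was 5 without activated replicate 2, or telogen replicate 1 or 2. E2f1, a transcription factor of S phase genes, went from 3 and 2.19 to 18.6 and 19.6 FPKM (log2 difference 2.49, SE 0.271, adjusted p = 0.000485), E2f8, a repressor of the same family, from 0.684 and 0.534 to 7.3 and 11.9 (log2 difference 2.69, SE 0.271, adjusted p = 0.000358), and cyclin Ccne2 from 1.42 and 0.879 to 8.22 and 7.91 (log2 difference 2.09, SE 0.327, adjusted p = 0.00307). The pocket protein Rbl1 rose by 1.83 (adjusted p = 0.00231). By contrast cyclin D1, Ccnd1, which links growth signals to the cell cycle, stood at 53 and 53.6 in telogen and 50.3 and 50.5 in activated libraries (log2 difference -0.08, adjusted p = 0.846). The inhibitor Cdkn1c (p57) was the gene of the list that fell, from 6.95 and 7.31 to 0.78 and 0.586 FPKM (log2 difference -2.27, SE 0.286, adjusted p = 0.000945). Cdkn1a (p21), a further inhibitor, was at 36.8 and 83.6 and 119 and 58.7, with overlapping groups (adjusted p = 0.425). Myc rose from 28.6 and 29.5 to 70 and 93.3 (log2 difference 1.44, SE 0.291, adjusted p = 0.011), a call that was lost without telogen replicate 1 or 2, or activated replicate 2 (adjusted p = 0.0756 to 0.097).

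**Figure D2:**
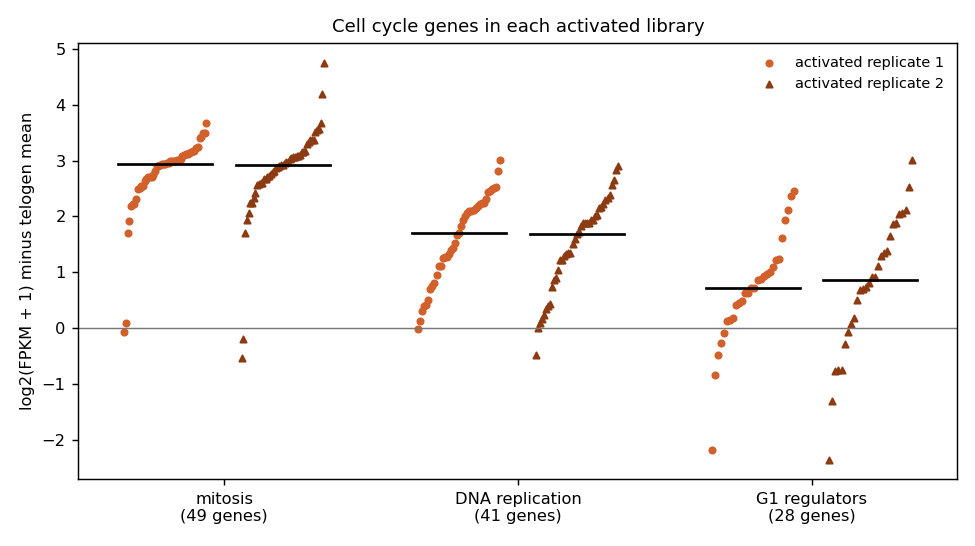
Difference of log2(FPKM + 1) from the telogen mean for each gene of the mitosis, DNA replication and G1 regulator lists, with activated replicate 1 as circles, replicate 2 as triangles, genes sorted by value and the median as a black bar. The mitosis medians are 2.95 and 2.93, the replication medians 1.71 and 1.68, and the G1 genes spread on both sides of 0.

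Of 23 chromatin and DNA methylation genes 8 rose and 1 fell, Cbx7 (median 1.03). The number that rose was 5 without telogen replicate 2, and the fall was not called without any 1 of the 4 telogen libraries of both ages or activated replicate 2. Uhrf1, which brings the maintenance methyltransferase to hemimethylated DNA, went from 8.73 and 6.15 to 50.8 and 57.4 FPKM (log2 difference 2.72, SE 0.315, adjusted p = 0.000632), and that methyltransferase, Dnmt1, from 12.7 and 12.6 to 46.4 and 55.5 (log2 difference 1.92, SE 0.23, adjusted p = 0.000741). The remodeller Hells went from 2.58 and 2.11 to 23.6 and 26.4 (log2 difference 2.96, SE 0.376, adjusted p = 0.000985) and the histone chaperone Asf1b from 5.43 and 3.75 to 31 and 26.2 (log2 difference 2.42, SE 0.373, adjusted p = 0.00286). Ezh2, the methyltransferase of Polycomb repression, rose by 1.91 (adjusted p = 0.00256).

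Promoter windows of the cell division genes were searched for motifs, and 2 windows are shown as examples of where such motifs lie. Windows of 250 bases before the RefSeq transcription start (GRCm38.p6) were searched on both strands for CCAAT (bound by NF-Y), TTTGAA (the core of the cell cycle homology region), GCGGGAA (an E2F site), TGACGTCA (the cAMP response element), TGANTCA (AP-1) and the CArG box (bound by SRF, a factor of immediate early genes). A CArG box can contain CCAAT, and no other motif of these contains another. Of the mitosis genes 39 matched the promoter table, and 81.0% of their 42 promoters held CCAAT, against 33.8% of all 32851 promoters of that length and 35.0% of those of autosomal genes tested. TTTGAA was in 40.5% of them, against 16.0% of all promoters and 10.3% of those of autosomal genes tested. Of the replication genes 30 matched, and GCGGGAA was in 26.5% of their 34 promoters, against 3.82% of all promoters and 6.87% of those of autosomal genes tested. The lists differed in these motifs: GCGGGAA was in 0% of the mitosis promoters, while of the replication promoters 55.9% held CCAAT and 11.8% TTTGAA. A match describes the letters of a window, and no binding was measured. The promoter of Prc1, at chr7:80294226-80294475 on the plus strand, has its CCAAT in capitals beginning 62 bases before the start and its TTTGAA beginning 30 bases before it:
Prc1: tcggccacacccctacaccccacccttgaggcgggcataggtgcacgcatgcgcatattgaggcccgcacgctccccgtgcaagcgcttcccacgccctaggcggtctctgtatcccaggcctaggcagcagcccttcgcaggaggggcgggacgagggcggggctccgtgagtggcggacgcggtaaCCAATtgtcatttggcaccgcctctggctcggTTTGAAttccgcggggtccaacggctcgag
The promoter of Chaf1a, a chaperone that deposits histones at the fork, at chr17:56040166-56040415 on the plus strand, has CCAAT in capitals beginning 81 bases before the start and the E2F motif, here on the other strand and so printed as TTCCCGC, 47 bases before it:
Chaf1a: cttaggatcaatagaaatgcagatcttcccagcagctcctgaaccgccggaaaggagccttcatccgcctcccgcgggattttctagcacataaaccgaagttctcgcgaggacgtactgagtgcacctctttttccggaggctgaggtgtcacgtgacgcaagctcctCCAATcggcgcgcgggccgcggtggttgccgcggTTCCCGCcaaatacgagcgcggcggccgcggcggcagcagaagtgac
Chaf1a itself stood at 6.02 and 5.89 FPKM in telogen and 21.7 and 23.6 in activated libraries (log2 difference 1.76, SE 0.24, adjusted p = 0.00146), a gene chosen after its values were seen for its promoter.

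The bulge identity of the telogen libraries was checked against epidermis. Cd34 stood at 1072 and 1303 FPKM in the telogen libraries and at a mean of 4.12 in the 2 epidermis libraries at 2 months, and Krt24 at 536 and 615 against 4.31. After depilation, 10 of 28 bulge markers tested fell and 2 rose. Without telogen replicate 1 the number that fell was 6, and neither rise was called without any 1 of the 4 telogen libraries of both ages or activated replicate 2. Their median of -0.37 depends on the scaling and was 0.04 with equal library totals and 0.01 with quantile normalization, so no direction is given for the list as a whole.

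Cd34 (mm9, chromosome 1, 196765015 to 196787486) was at 89.8 and 59 FPKM in the activated libraries (log2 difference -4.00, SE 0.469, adjusted p = 0.000668), which is still above the epidermis mean. Krt24, a keratin of the bulge, was at 25.4 and 23.8 (log2 difference -4.49, SE 0.33, adjusted p = 0.000153). Krt15, a keratin that marks the bulge, went from 13936 and 15755 to 2661 and 2518 FPKM (log2 difference -2.52, SE 0.546, adjusted p = 0.0155). Both replicates of each group were close. For Krt15 the level after depilation was above 1000 FPKM but below the epidermis mean at 2 months, 4696 FPKM. The Krt15 call was lost without telogen replicate 1 or 2, or activated replicate 2 (adjusted p = 0.0554 to 0.151), and with quantile normalization, no filter on low values or the 4 libraries fitted alone. Among secreted products, Fgf18, the growth factor that holds follicles in telogen (mm9, chromosome 11, 33017431 to 33047400), went from 20.4 and 30.7 to 1.19 and 0.113 (log2 difference -4.06, SE 0.333, adjusted p = 0.000176). Dkk3, a secreted relative of Wnt inhibitors, went from 307 and 304 to 71.3 and 95.5 (log2 difference -1.88, SE 0.291, adjusted p = 0.00291) and Ltbp2, a matrix protein related to the binders of latent TGF-beta, from 75.9 and 88.8 to 9.58 and 11.9 (log2 difference -2.83, SE 0.229, adjusted p = 0.000176). Wif1, an inhibitor that binds Wnt ligands, went from 49.2 and 31.4 to 18.9 and 12.1 (log2 difference -1.32, SE 0.287, adjusted p = 0.0156). The Wif1 call was lost without telogen replicate 1 or activated replicate 2 (adjusted p = 0.102 to 0.143), and with a pseudocount of 0.1 or the 4 libraries fitted alone. For each of these the lowest telogen value exceeded the highest activated one.

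Id2, an inhibitor of helix-loop-helix factors, fell as well. The members that rose, named after their values were seen, are both transcription factors. Tcf7l2 went from 9.28 and 7.62 to 15.1 and 22.9 FPKM (log2 difference 1.06, SE 0.263, adjusted p = 0.0269) and Runx1 from 9.67 and 6.47 to 22.2 and 27.6 (log2 difference 1.53, SE 0.38, adjusted p = 0.0273). Besides the fits named above, the Tcf7l2 call was lost with the main transcript of each gene or the 4 libraries fitted alone, and that of Runx1 with the length trend removed, no filter on low values or a pseudocount of 0.1. The members that were not called include further transcription factors as well as surface and secreted proteins such as Sfrp1, Npnt, Postn, Itgb6 and Alcam. Itga6, an integrin subunit of basal cells chosen after its values were seen, was higher in both activated libraries without passing the test, at 48.2 and 42.8 and 84.7 and 98.1 FPKM (adjusted p = 0.0539). Nfatc1, which keeps bulge cells quiescent, stood at 57.4 and 52.3 FPKM in telogen and 44.5 and 85.9 in activated libraries (log2 difference 0.17, SE 0.316, adjusted p = 0.742). Lhx2, needed to maintain the bulge, was at 207 and 146 and 114 and 195 (log2 difference -0.22, SE 0.345, adjusted p = 0.689), and Tbx1, a T-box factor chosen after its values were seen, at 150.4 and 131 and 88 and 147 (log2 difference -0.30, SE 0.315, adjusted p = 0.545). In each of these genes activated replicate 1 was below both telogen libraries and activated replicate 2 was above at least the lower of them. Sox9 was at 60.5 and 51.2 and 117 and 121 FPKM, with both activated libraries near 2 times the telogen level but short of the threshold (log2 difference 1.08, SE 0.418, adjusted p = 0.116), and Foxc1 at 20.8 and 19.2 and 23.7 and 25.3 (adjusted p = 0.618). Lgr5, a receptor that marks the lower bulge and hair germ, was at 67.5 and 60 in telogen and 27.3 and 74.9 in activated libraries, where replicate 1 was below and replicate 2 above both telogen values (adjusted p = 0.47). Col17a1, the hemidesmosomal collagen of basal stem cells, was at 1124 and 1173 and 704 and 669 (log2 difference -0.74, SE 0.421, adjusted p = 0.262).

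**Figure D3:**
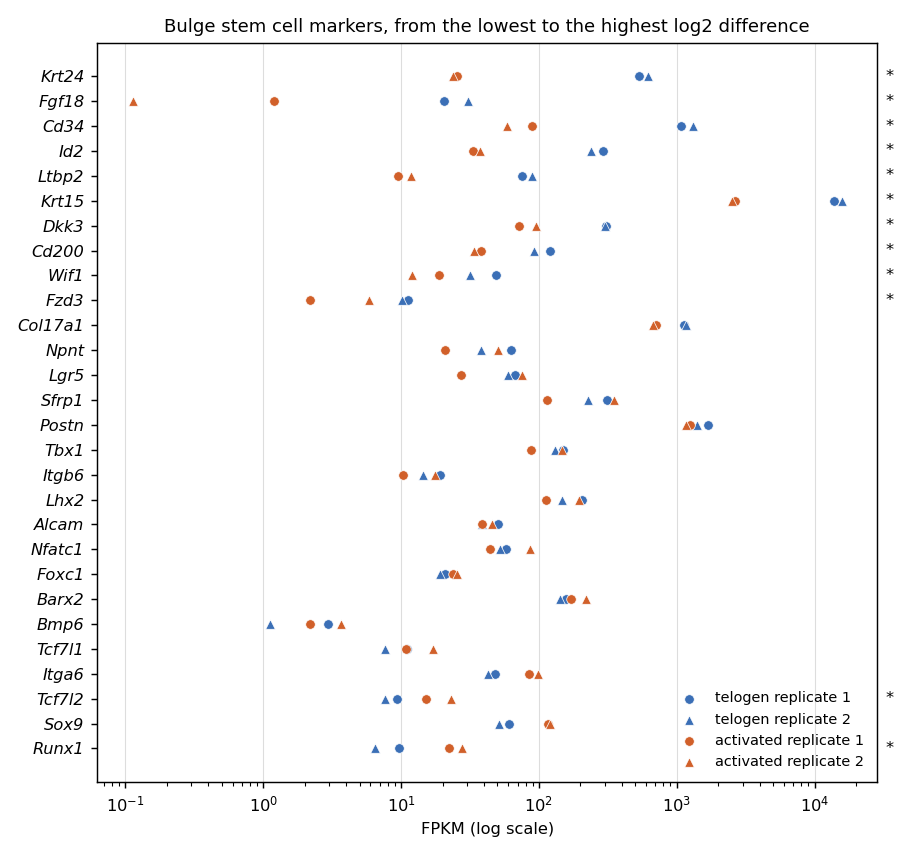
FPKM on a log axis in the 4 libraries for the 28 bulge markers tested, sorted by log2 difference, with telogen libraries in blue, activated in orange, replicate 1 as circles and replicate 2 as triangles; an asterisk marks a called gene. Krt24, Fgf18 and Cd34 at the top are apart by more than 3 log2 units, while Nfatc1, Lhx2, Tbx1 and Lgr5 in the middle overlap between groups.

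Several other large falls were of matrix and secreted genes. In the list of basement membrane, hemidesmosome and niche matrix genes 5 of 37 fell and none rose, and no integrin or laminin subunit was among those that fell. The number that rose was 4 without activated replicate 1, 3 without either epidermis library at 24 months and 2 without either at 2 months. The median of -0.15 changed sign with the scaling (0.24 with equal library totals, 0.13 with quantile normalization). Angptl7, a secreted angiopoietin-like protein (mm9, chromosome 4, 147869389 to 147874571), had the largest fall of all autosomal genes tested, from 126 and 258 to 6.7 and 2.57 FPKM (log2 difference -5.11, SE 0.488, adjusted p = 0.000284). Col8a2, a short-chain collagen, went from 134 and 165 to 9.73 and 14.1 (log2 difference -3.56, SE 0.278, adjusted p = 0.000158), the small proteoglycan Aspn from 40 and 34.1 to 3.33 and 3.68 (log2 difference -3.08, SE 0.255, adjusted p = 0.000176) and the secreted glycoprotein Myoc from 81.7 and 168 to 6.18 and 5.11 (log2 difference -4.16, SE 0.456, adjusted p = 0.000494). The FPKM level after depilation was under 15 FPKM in both libraries for all 4 genes. Sparc, a collagen-binding matrix protein that dermal cells also make, went from 530.1 and 658 to 160.5 and 95.9 (log2 difference -2.24, SE 0.485, adjusted p = 0.0154). The Sparc call was lost without telogen replicate 1 or 2, or activated replicate 2 (adjusted p = 0.0719 to 0.132). The fibroblast collagen Col1a1 was at 102 FPKM in activated replicate 1, against 3.49 in activated replicate 2 and 4.73 and 4.78 in the telogen libraries, and the part of dermal RNA in these 5 values was not tested.

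Further large falls fell outside the lists. S100a4, a calcium-binding protein, was among the most abundant transcripts of the telogen bulge and went from 5991 and 6189 to 431 and 126 FPKM (log2 difference -4.70, SE 0.574, adjusted p = 0.000811). Cck, the peptide hormone cholecystokinin, went from 66.7 and 75.4 to 2.79 and 1.6 (log2 difference -4.52, SE 0.426, adjusted p = 0.000284) and the small GTPase Rab17 from 15.5 and 24.4 to 0.323 and 0.33 (log2 difference -3.95, SE 0.245, adjusted p = 0.000143). Wfdc3 went from 201 and 367 to 18.5 and 10.5 (log2 difference -4.19, SE 0.363, adjusted p = 0.000207), and Ppp1r3c, which targets a phosphatase to glycogen, from 33.1 and 23.8 to 1.21 and 2.25 (log2 difference -3.44, SE 0.344, adjusted p = 0.000353). In each the lower telogen value was more than 10 times the higher activated one. Fam180a and Calr3, a testis relative of calreticulin, had differences of -3.63 and -3.45 (adjusted p = 0.00137 and 0.000143). Sncg, gamma-synuclein, fell by 4.87 (adjusted p = 0.00887). The Sncg call was lost without telogen replicate 1 or 2 (adjusted p = 0.051 to 0.0773).

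Signalling genes were examined by pathway, from ligands to targets. In the BMP and TGF-beta list 5 of 40 rose and 5 fell, with a median of 0.07 that became -0.09 when the length trend was removed. Nog, the antagonist that binds BMPs outside the cell, went from 32.8 and 28.1 to 3.49 and 2.62 FPKM (log2 difference -2.96, SE 0.212, adjusted p = 0.000153). Id2, a direct BMP target, went from 291 and 237 to 33.5 and 37.3 (log2 difference -2.86, SE 0.251, adjusted p = 0.000219), whereas the related targets Id1 and Id3, chosen after their values were seen, were lower in both activated libraries without passing the test, at 202 and 205 against 138 and 64.8 (adjusted p = 0.169) and 402 and 384 against 247 and 117 (adjusted p = 0.19). The ligand Bmp6 was at 2.95 and 1.12 and 2.17 and 3.7 FPKM, with overlapping groups (adjusted p = 0.369). Bmp1, a protease that matures collagens, rose from 10.6 and 9.27 to 32.7 and 28.7 (log2 difference 1.54, SE 0.276, adjusted p = 0.00616). The Bmp1 call was lost without telogen replicate 2 (adjusted p = 0.0777). The number of members that rose was 1 to 3 without telogen replicate 1 or 2 at either age or activated replicate 2, and the number that fell was 3 without telogen replicate 1 or 2 or activated replicate 1.

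Within the FGF, EGF receptor and MAPK list, 6 of 32 rose and 3 fell (median 0.63), and the called ligands of the FGF family fell while those of the EGF receptor rose. Fgf1 went from 54.5 and 53.9 to 10.9 and 12.2 FPKM (log2 difference -2.14, SE 0.217, adjusted p = 0.000362), beside the fall of Fgf18. The EGF receptor ligand Epgn went from 2.39 and 4.55 to 114 and 25, higher in activated replicate 1 than in replicate 2 (log2 difference 3.66, SE 0.653, adjusted p = 0.00601). The Epgn call was lost without telogen replicate 1 (adjusted p = 0.0591), and with the 4 libraries fitted alone. Dusp5, a phosphatase that ERK signalling induces and that shuts ERK off, went from 1.91 and 3.12 to 29 and 13.4 (log2 difference 2.59, SE 0.46, adjusted p = 0.00594). The Dusp5 call was lost without telogen replicate 1 (adjusted p = 0.0591). Lrig1, which restrains EGF receptors and marks stem cells of the isthmus above the bulge, went from 29.6 and 30.5 to 69.2 and 140.5 (log2 difference 1.68, SE 0.348, adjusted p = 0.0126). The Lrig1 call was lost without telogen replicate 1 or 2, or activated replicate 2 (adjusted p = 0.0768 to 0.0972), and with the 4 libraries fitted alone. Without telogen replicate 1 none of the rises of this list was called, and without telogen replicate 2 the number was 2, while at least 2 of the falls were called in each fit without 1 library.

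Of 42 Wnt pathway genes 4 rose and 4 fell, shares near the 6.66% and 6.18% of all genes tested. Both activated libraries lay above both telogen libraries for 10 of the 42 and below them for 9, against 29.1% and 35.8% of all genes tested. The list's median of 0.03 was -0.05 with the length trend removed. The 4 that fell are Wif1, Dkk3 and 2 receptors, of which Fzd9 went from 15.1 and 25.2 FPKM to under 1, 0.444 and 0.521 (log2 difference -3.79, SE 0.322, adjusted p = 0.000183), and Fzd3 is the other. Lgr6, a receptor for R-spondins that marks cells above the bulge, went from 17.4 and 13.3 to 35.9 and 58.7 (log2 difference 1.53, SE 0.37, adjusted p = 0.0244). The Lgr6 call was lost without telogen replicate 1 or 2, or activated replicate 2 (adjusted p = 0.0841 to 0.198), and with the 4 libraries fitted alone. The other rises were Lrp5, Tcf7l2 and Znrf3. Znrf3, a feedback inhibitor that Wnt signalling induces, chosen after its values were seen, went from 2.97 and 2.27 to 5.74 and 9.47 (log2 difference 1.22, SE 0.342, adjusted p = 0.0431). The Znrf3 call was lost without telogen replicate 1 or 2, 24-month telogen replicate 1 or 2, 24-month epidermis replicate 1 or 2, or activated replicate 2 (adjusted p = 0.0503 to 0.259), and with quantile normalization, median of ratios scaling, equal library totals, no filter on low values, pseudocount 5, no trend, the 4 libraries fitted alone or the crossed replicate block. The targets Axin2 and Lef1 were not called. Axin2 was at 9.19 and 11 in telogen and 7.2 and 5.51 in activated libraries (adjusted p = 0.223) and Lef1 at 1.17 and 0.718 and 2.18 and 0.353 (adjusted p = 0.864). None of the rises was called without telogen replicate 1 or 2 or activated replicate 2, and 1 was without either telogen library at 24 months. Without telogen replicate 1 the number that fell was 2.

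In the Hedgehog list the activated replicates disagreed. Ptch1, the receptor that is itself a target of the pathway, was at 7.94 and 3.84 FPKM in telogen, 9.63 in activated replicate 1 and 67.5 in activated replicate 2 (log2 difference 2.04, SE 0.742, adjusted p = 0.098). Gli1, its transcription factor and most direct target, was at 23.2 and 15 in telogen and 35.2 and 118 in activated libraries (log2 difference 1.74, SE 0.547, adjusted p = 0.0639), and Gli2 at 9.73 and 6.72 and 11.8 and 34 (log2 difference 1.22, SE 0.396, adjusted p = 0.071). In all 3 genes activated replicate 2 stood well above the telogen libraries and replicate 1 only slightly. The coreceptor Cdon fell by 1.27 (adjusted p = 0.0146). The Cdon call was lost without telogen replicate 1 or 2, or activated replicate 1 (adjusted p = 0.0669 to 0.122), and with equal library totals or the 4 libraries fitted alone. The ligand Shh, which the early matrix makes, was under 1 FPKM in all 4 libraries, at 0.19 and 0.0109 and 0.415 and 0.0202. The list had 1 higher and 1 lower of 13 tested. Both numbers went up in some fits without 1 library and down in others. The number higher went down without telogen replicate 2 or activated replicate 2.

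Of 18 Notch pathway genes 3 rose and 2 fell (median 0.28). The receptor Notch1 went from 12.1 and 10.7 to 25.8 and 42.4 FPKM (log2 difference 1.46, SE 0.303, adjusted p = 0.0127) and Adam10, the protease that activates it, from 11.3 and 8.67 to 30.5 and 30.1 (log2 difference 1.52, SE 0.347, adjusted p = 0.0192). Hes6, an antagonist of the Notch effector Hes1, went from 27.2 and 27.3 to 8.06 and 6.65 (log2 difference -1.76, SE 0.333, adjusted p = 0.00813). Hes1 itself, chosen after its values were seen, was at 26.3 and 24.1 and 116 and 182, a wide separation that did not pass the test (log2 difference 2.48, SE 0.915, adjusted p = 0.102). The numbers that rose and that fell went up in some fits without 1 library. Both numbers went down without telogen replicate 1 or 2. The calls of Notch1 were lost without telogen replicate 1 or 2, or activated replicate 2 (adjusted p = 0.0719 to 0.118), and with the length trend removed or the 4 libraries fitted alone, those of Adam10 without telogen replicate 1 or 2, or activated replicate 1 or 2 (adjusted p = 0.0548 to 0.172), and those of Hes6 without telogen replicate 1 or 2 (adjusted p = 0.0591 to 0.0713).

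Immediate early genes, which growth factors and wounding switch on within minutes, held several of the largest rises. Of 31 tested 16 rose and none fell, with a median of 1.96. The count was 6 without telogen replicate 1; 8 without telogen replicate 2; 9 without activated replicate 2. Fosl1, a partner of Jun in AP-1 (mm9, chromosome 19, 5447698 to 5455938), had the largest rise of all autosomal genes tested, from 0.736 and 2.57 to 95.9 and 101 FPKM (log2 difference 5.32, SE 0.626, adjusted p = 0.000685). The zinc finger factors Egr2 and Egr3 went from 5.7 and 6.23 to 58.2 and 147 (log2 difference 3.75, SE 0.424, adjusted p = 0.000559) and from 3.57 and 5.54 to 46.3 and 191 (log2 difference 4.12, SE 0.663, adjusted p = 0.00351), each higher in activated replicate 2. The nuclear receptor Nr4a3 went from 0.602 and 0.337 to 23.8 and 39.3 (log2 difference 4.43, SE 0.608, adjusted p = 0.00151), and Arc from 2.25 and 4.64 to 113 and 31.2, here higher in activated replicate 1 (log2 difference 3.82, SE 0.596, adjusted p = 0.00299). Nr4a1 went from 44.2 and 52.1 to 927 and 627 (log2 difference 3.96, SE 0.698, adjusted p = 0.00566). The Nr4a1 call was lost without telogen replicate 1 (adjusted p = 0.0504). Fos, chosen after its values were seen, was at 844 and 551 in telogen and 1396 and 1574 in activated libraries and was not called (log2 difference 1.12, SE 0.55, adjusted p = 0.202); it was thus abundant in the resting cells as well.

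The promoter of Egr2 is shown because it holds a CArG box and Egr2 had the smallest p of this list. The box was in 21.4% of the 28 promoters of the 22 immediate early genes matched, which come from 3 genes, against 1.47% of all promoters and 1.11% of those of autosomal genes tested. The window lies at chr10:67537316-67537565 on the plus strand, with the box in capitals beginning 72 bases before the start:
Egr2: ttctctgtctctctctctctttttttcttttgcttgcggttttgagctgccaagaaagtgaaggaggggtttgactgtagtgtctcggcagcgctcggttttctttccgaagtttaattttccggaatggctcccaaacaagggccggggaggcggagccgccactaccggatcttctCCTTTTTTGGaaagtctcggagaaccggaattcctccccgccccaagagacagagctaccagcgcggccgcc
TGANTCA, the AP-1 motif, was in none of these 28 windows.

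Pla2g7, the enzyme that inactivates platelet-activating factor, went from 3.11 and 1.04 to 30.8 and 76 FPKM (log2 difference 4.09, SE 0.506, adjusted p = 0.000857) and belongs to none of the lists. Adamts1, a secreted protease, went from 6.85 and 5.39 to 102 and 145 (log2 difference 4.11, SE 0.788, adjusted p = 0.00857). The Adamts1 call was lost without telogen replicate 1 or 2 (adjusted p = 0.05 to 0.0772). Nfkbiz, a nuclear regulator of NF-kappaB targets, went from 6.97 and 7.28 to 119 and 84.1 (log2 difference 3.64, SE 0.662, adjusted p = 0.00662). The Nfkbiz call was lost without telogen replicate 1 or 2 (adjusted p = 0.0508 to 0.0573). For all 3 the lower activated value was far above the higher telogen one.

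Of 17 hair germ and early matrix genes 1 rose and 1 fell. The number that rose was 3 without activated replicate 1. The number that fell was 0 without telogen replicate 1 and 2 without activated replicate 1 or either 24-month activated or epidermis library. The gene that rose was Foxi3, a factor of the hair germ, from 3.6 and 0.458 to 11 and 11.1 FPKM (log2 difference 2.22, SE 0.417, adjusted p = 0.00781). The Foxi3 call was lost with the 4 libraries fitted alone. Msx1 fell, from 3.58 and 3.01 to 0.631 and 1.25 (log2 difference -1.16, SE 0.208, adjusted p = 0.00613). The Msx1 call was lost without telogen replicate 1 (adjusted p = 0.0615), and with equal library totals, the length trend removed or the 4 libraries fitted alone. Only 13 of 32 hair shaft and inner root sheath genes were expressed enough to be tested, and 1 rose and 2 fell. The number that fell was 4 without activated replicate 1 and 1 without telogen replicate 1 or 2 or activated replicate 2. Krt25, an inner root sheath keratin, went down from 15.6 and 20.6 to 5.26 and 4.36 (log2 difference -1.71, SE 0.258, adjusted p = 0.00249), and Krt27, of the same layer, went up from 0.508 and 0.31 to 3.68 and 1.85 (log2 difference 1.38, SE 0.31, adjusted p = 0.018). The Krt27 call was lost without telogen replicate 1 or 2, or activated replicate 1 (adjusted p = 0.0716 to 0.144), and with the 4 libraries fitted alone. Of 8 outer root sheath and companion layer genes Krt79, given below, rose and Krt75, of the companion layer, fell. Krt75 went from 11.7 and 29 to 1.45 and 0.588 (log2 difference -3.30, SE 0.397, adjusted p = 0.000748). Krt17, a keratin of the outer root sheath and of activated keratinocytes, was at 1402 and 1503 in telogen and 2362 and 2679 in activated libraries, higher in both but not called (log2 difference 0.79, SE 0.542, adjusted p = 0.349).

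The activated replicates differed in wound and differentiation genes. Of 41 keratinocyte wound genes 4 rose and 1 fell, and the median was 1.84 in activated replicate 1 and 0.03 in replicate 2; 9 rose without activated replicate 2, 1 without telogen replicate 1 and 2 without telogen replicate 2. Krt16, a keratin of stressed epidermis, was at 252 and 525 FPKM in telogen, 1789.8 in activated replicate 1 and 294 in replicate 2 (adjusted p = 0.51), and Krt6a at 543 and 971, 1254 and 229 (adjusted p = 0.794). The cytokine Il24 was high in both activated libraries, from 0.0853 and 0.769 to 9.9 and 15.2 (log2 difference 3.26, SE 0.745, adjusted p = 0.0192). The Il24 call was lost without telogen replicate 1 or 2, or activated replicate 2 (adjusted p = 0.0796 to 0.129), and with no filter on low values. Epidermal differentiation genes had medians of 1.74 and -0.97 in the activated replicates, with 0 higher and 1 lower of 28. Lor, the main protein of the cornified envelope, chosen after its values were seen, was at 13.1 and 166 in telogen and 854 and 39.6 in activated libraries, and so differed between replicates in both groups (adjusted p = 0.508). The member that fell was Calml3, a calmodulin-like protein of epithelia, from 1138 and 1172 to 264 and 209 (log2 difference -2.29, SE 0.408, adjusted p = 0.00594). The Calml3 call was lost without telogen replicate 2 (adjusted p = 0.0617).

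The summed level of markers of the upper follicle was higher in both activated libraries, though not that of each marker. The summed FPKM of 7 infundibulum and isthmus markers was 307.3 and 432.6 in telogen and 1227 and 650.5 in activated libraries, and 3 of the 7 rose: Lrig1 and Lgr6, given above, and Krt79, a keratin of the infundibulum, from 55.1 and 83.6 to 448 and 195 FPKM (log2 difference 2.11, SE 0.605, adjusted p = 0.0476). The call of Krt79 was lost without telogen replicate 1 or 2, 24-month telogen replicate 1 or 2, activated replicate 1, or 24-month activated replicate 1 or 2 (adjusted p = 0.0588 to 0.236), and with no filter on low values, a pseudocount of 0.1, the main transcript of each gene, the 4 libraries fitted alone or the crossed replicate block. None of the 3 was called without telogen replicate 1 or 2, and 1 was without activated replicate 2. Of 2 markers chosen after their values were seen, Ly6a was at 21.5 and 71.1 in telogen and 65 and 6.82 in activated libraries and Cst6 at 16.1 and 35.9 and 134 and 21.6, both with overlapping groups and both not called (adjusted p = 0.554 and 0.428). In bulk samples a changed share of cells and a changed amount of RNA per cell cannot be told apart. The part of these cells in the other results was not tested.

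Markers of other cells were mostly low. Sebaceous gland markers summed to 280.2 and 379.6 in telogen and 1077 and 172.8 in activated libraries, and Langerhans cell, macrophage and mast cell markers to 62 and 74.3 against 130.2 and 20.1. Endothelial markers summed to at most 18, dermal papilla markers to at most 29.6 and Merkel cell markers to at most 3.71 FPKM in any of the 4 libraries. Fibroblast genes set activated replicate 1 apart. Col3a1 stood at 0.0581 and 0.0704 in telogen, 111 in activated replicate 1 and 0.0232 in replicate 2, and Dcn at 0.228 and 0.0848, 113 and 0.281; 11 of 12 fibroblast markers reached 1 FPKM in activated replicate 1 and 5 in replicate 2. Melanocyte markers had sums of 59.5 and 26.1 in telogen and 11 and 10.5 in activated libraries, with no overlap. Of the 4 tested 1 fell, Mitf, the master factor of melanocytes, from 18.3 and 16.7 to 3.76 and 3.6 FPKM (log2 difference -1.98, SE 0.267, adjusted p = 0.00137); all 4 fell without telogen replicate 2. Muscle, Schwann cell and adipocyte markers summed to at most 28.2 in any of the 4 libraries. For T cell markers the sums were 15.1 and 19.7 against 35.9 and 25.8.

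**Figure D4:**
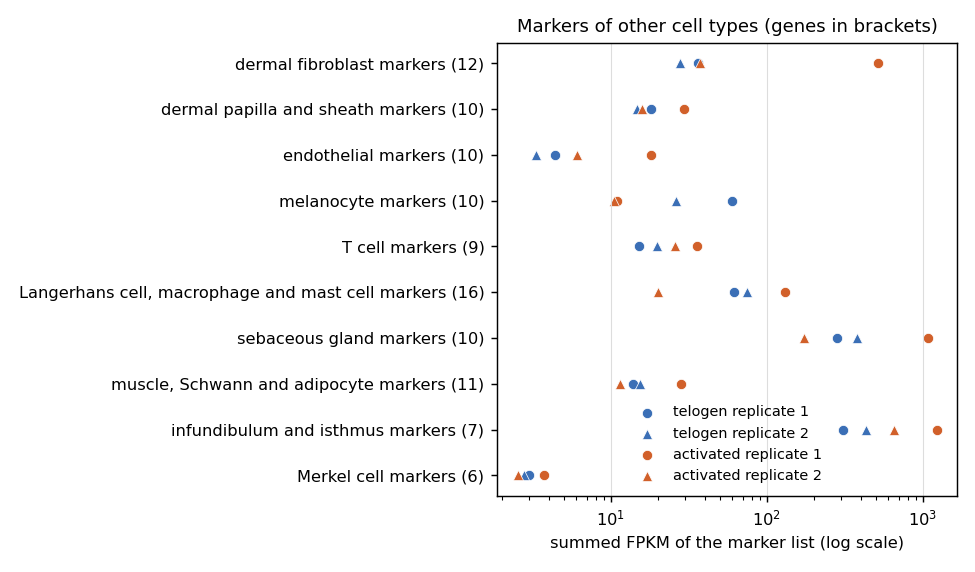
Summed FPKM of each marker list on a log axis in the 4 libraries (telogen blue, activated orange, replicate 1 circles, replicate 2 triangles). Activated replicate 1 stands apart for fibroblast (513.5) and sebaceous gland markers (1077), and both activated libraries lie above telogen for infundibulum and isthmus markers and below it for melanocyte markers.

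Few growth and energy genes were called. Of 71 cytosolic ribosomal protein genes 1 fell and none rose, with medians of -0.47 in activated replicate 1 and -1.43 in replicate 2. In 65 of the 71 both activated libraries lay below both telogen libraries, against 35.8% of all genes tested, and the list's median was -0.93. Of 70 oxidative phosphorylation genes 2 fell, with medians of -0.02 and -0.94. Both lists are of short transcripts, with median lengths of 703 and 686 nt against 2716 over all genes tested, and genes of the shortest class had medians of -0.12 and -0.76 in these libraries. With the length trend removed the medians became -0.60 and -0.14, and with quantile normalization -0.25 and -0.21. All 3 calls, Rpl17, Ndufa11 and Ndufb4, were lost without any 1 of the 4 libraries compared or either 24-month telogen library. By contrast 10 ribosomal protein genes fell without either epidermis library at 2 months. Of 37 ribosome biogenesis genes 1 rose, and of 28 genes of nucleotide and one-carbon synthesis 5 rose. The first count was 0 to 4 over the fits without 1 library (4 without either epidermis library at 24 months), and the second was 1 without telogen replicate 1 or 2 and 2 without either activated library or either 24-month telogen library. Mthfd2, a mitochondrial enzyme of one-carbon metabolism, was the one called in every fit, from 1.65 and 1.43 to 8.75 and 10.6 FPKM (log2 difference 2.06, SE 0.309, adjusted p = 0.00241).

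**Figure D5:**
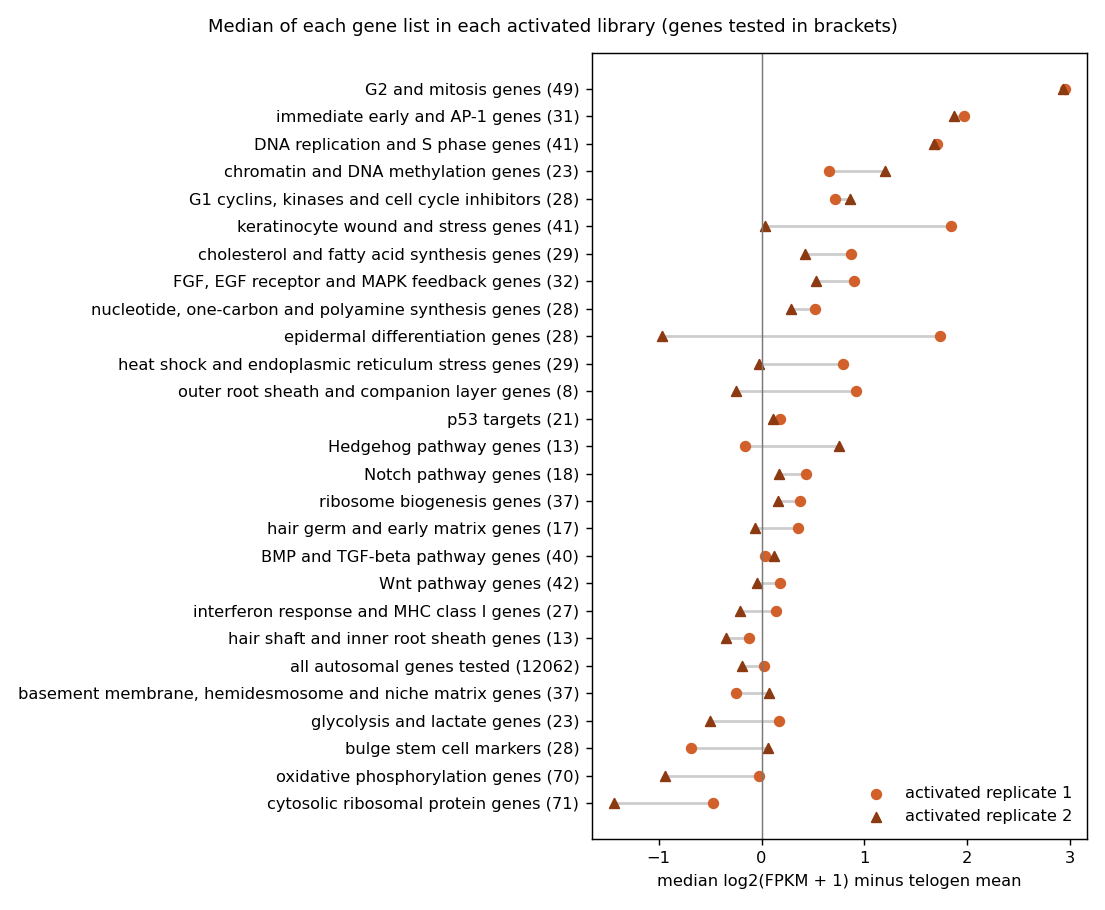
Median difference of log2(FPKM + 1) from the telogen mean for the 26 gene lists and for all autosomal genes tested, in activated replicate 1 (circles) and replicate 2 (triangles), with the number of genes tested in brackets. The cell division lists and the immediate early list lie to the right in both libraries, while wound genes (1.84 and 0.03) and epidermal differentiation genes (1.74 and -0.97) are far apart between replicates.

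The same contrast at 24 months gave 966 called genes (8.01%), 498 higher and 468 lower. It shares no library with the contrast at 2 months but falls on the same split of sex-linked transcripts. Xist stood at 0.0215 and 0.0372 FPKM in the 24-month telogen and 23.4 and 141 in the 24-month activated libraries, and Eif2s3y at 24.5 and 24.7 and 0.137 and 0.0564. The spread comes from the same fit. Of the 803 rises at 2 months 441 (54.9%) were also called at 24 months, which is 88.6% of the 498, and of the 746 falls 390 (52.3%, and 83.3% of the 468); none was called in the opposite direction. Cd34 differed by -3.50 at 24 months (adjusted p = 0.00158) against -4.00 at 2 months, Top2a by 4.17 against 3.93, Fgf18 by -2.80 against -4.06 and Fzd9 by -3.47 against -3.79. Differences of immediate early genes at 24 months were, for Egr2, 2.16 against 3.75, for Nr4a3 2.79 against 4.43 and for Fosl1 3.99 against 5.32, but none of these differences between ages passed the test. Limma called 0 of 12062 autosomal genes for a difference of activation between the ages, so no gene can be named as activated differently at 2 months. At an unadjusted p under 0.05 there were 97, far below the share of 0.05 due when no gene differs. The test was thus too strict here, and its lack of calls does not show that activation was alike at both ages. For Cck, which differed by -2.41 at 24 months, the difference between the ages was 2.11 (unadjusted p = 0.00569) and was not called either.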

How the data were processed

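RNA of sorted bulge stem cells was measured by mRNA sequencing in 2 telogen and 2 activated libraries at 2 months. The submitters' processing notes name TopHat, Cufflinks and the mm9 build, without a version. The authors deposited FPKM for 28018 transcripts per library, on a scale far above the usual one. All 12 libraries of bulge and epidermis were divided by 1 constant, 16679.9, the geometric mean over libraries of total FPKM times length in kilobases divided by 1000000, which changes no ratio between libraries. The wounded libraries use another annotation and were not used here.

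FPKM were summed per gene symbol (22033 genes, 20973 autosomal). A gene was tested when 2 or more of the 12 libraries reached 1 FPKM and its longest transcript reached 300 nt, which left 12468 genes, 12062 of them autosomal. Krt5 and Krt14 were set aside as failed estimates, with values of 0 in 7 and 3 libraries beside others above 1000 FPKM. Values were fitted as log2(FPKM + 1) with limma 3.58.1 in R 4.3.3, with a mean for each of 6 groups of 2 libraries and 1 shared estimate of spread. Moderation used a mean-variance trend, contrasts were two-sided, and p-values were adjusted by Benjamini-Hochberg over all 12468 genes. A group reduced to 1 library takes its spread from the other groups. The fit was tested on simulated data. Depth over the 12 libraries, 22.4 to 45.7 mega-fragments, was estimated from the deposited upper confidence bounds of FPKM, and no counting interval is given. How shared reads of near-identical copies were divided is not given in the sources used here, so Krt6a, Krt16 and Lce1d, which have such relatives, are uncertain.

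The comparison, its genes, 26 program lists and 10 marker lists were chosen with earlier results of these data known, so lists are given by counts and medians without a test. Genes were eligible for naming by 4 routes. They are the 15 largest rises and 15 largest falls among called genes with separate groups and a higher mean of at least 5 FPKM, the 5 smallest p of each program list, a set of anchor genes, and the 3 most abundant members of each marker list. Not all of these are described, 4 genes are not reported here, and genes named by no route are marked in the text as chosen after their values were seen. Besides 12 fits without 1 library, 16 other settings were run. Promoter windows come from RefSeq (GRCm38.p6) and were matched by symbol.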

Additional observations from a re-analysis of the deposited data

How the results depend on the processing

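The numbers of genes called depended on the libraries fitted and the scaling. Leaving out 1 library gave 243 to 932 rises and 157 to 964 falls, with the lowest numbers without telogen replicate 2 at 2 months. In these fits 0 to 1 genes had a different activation between ages. Without either telogen library at 24 months the falls were 460 and 457. Fitting the 4 libraries alone gave 492 rises and 437 falls, and the 8 bulge libraries alone 1333 and 1433. Equal library totals gave 1407 rises. The falls were 1532 with quantile normalization, 1383 with the length trend removed and 1183 with library weights. Without the filter on low values 1 gene was called for a different activation between ages. The cause of these changes was not tested. Median of ratios scaling, pseudocounts of 0.1 and 5, the main transcript, a filter at 5 FPKM, no trend and autosomal genes alone kept both counts within 1.5 times. In every alternative run 198 rises and 99 falls were called, and 1546 of the 1549 differences kept their sign wherever the gene was tested. Of the 117 named genes tested 86 were called, 60 of them in all 12 fits without 1 library and 59 in every alternative.

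The labels number the libraries of each group without saying whether same-numbered libraries belong together, and the main fit did not pair them. Same-numbered telogen and activated libraries had deviations correlated at -0.59 at 2 months and -0.05 at 24 months. Replicate 2 minus replicate 1 went with transcript length at Spearman 0.54 and 0.47 in the activated groups at 2 and 24 months. The values at these ages were 0.52 and 0.22 in epidermis, and -0.3 and 0.1 in telogen. Whether the numbers stand for a shared source of spread was not tested. With the replicate block, a term for replicate number shared by all groups, 1067 genes rose and 1278 fell. All 803 rises and 746 falls of the main fit were among them. The crossed pairing, added after seeing the data, gave 715 and 670, and both fits gave 0 genes for the difference between ages.

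Some genes that were not called changed sign. With quantile normalization the differences were 0.11 for Bub3, 0.12 for Ccnd1, 0.13 for Krt6a, 0.22 for Lhx2 and 0.04 for Tbx1. With equal library totals they were 0.34 for Bub3, 0.32 for Ccnd1, 0.09 for Cdc25b, 0.18 for Lhx2 and 0.10 for Tbx1, and with median of ratios scaling 0.03 for Bub3 and 0.01 for Ccnd1. With the length trend removed Bub3 was at 0.09 and Nfatc1 at -0.06, and with a pseudocount of 0.1 Lef1 was at -0.01. Over the fits without 1 library the differences ran from -0.61 to 0.16 for Lhx2, -0.03 to 0.86 for Bmp6, -0.51 to 0.72 for Lef1, -1.19 to 0.23 for Lgr5 and -0.67 to 0.07 for Tbx1. They ran from -0.20 to 0.09 for Bub3, -1.66 to 0.79 for Krt6a, -0.30 to 0.64 for Nfatc1, -0.31 to 2.30 for Krt16 and -0.26 to 4.14 for Lor. They ran from -2.36 to 0.71 for Ly6a and from -0.15 to 2.43 for Cst6. For Col1a1 and Col3a1 they ran from -0.36 to 4.16 and from -0.06 to 6.71. The cause was not tested. With 2 libraries a group and a median SE of 0.325 log2 units, changes near that size were not detectable. Whether larger changes were called depended on the SE of the gene. Differences of 1.08 for Sox9 (SE 0.418) and 1.74 for Gli1 (SE 0.547) were not called, whereas that of 1.06 for Tcf7l2 (SE 0.263) was.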

Other observations

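Stress and metabolic gene lists held a few calls each. Of 21 p53 targets 6 rose and none fell (median 0.30); 3 rose without telogen replicate 2. Gadd45a, a growth arrest gene, went from 6.08 and 3.49 FPKM in telogen to 26.3 and 20.1 in activated libraries (log2 difference 2.09, SE 0.278, adjusted p = 0.00128), and the polo-like kinases Plk2 and Plk3 from 6.38 and 8.09 to 139.8 and 45.9 (log2 difference 3.31, SE 0.553, adjusted p = 0.00434) and from 2.73 and 2.96 to 23.3 and 19.6 (log2 difference 2.54, SE 0.42, adjusted p = 0.00406).

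Of 27 interferon response and MHC class I genes 2 rose and 1 fell, and the list's median was 0. Irf1, a transcription factor of the interferon response, went from 9.61 and 11.5 to 89.8 and 126 FPKM (log2 difference 3.22, SE 0.442, adjusted p = 0.00151) and the chemokine Cxcl10 from 1.99 and 0.817 to 11.3 and 9.16 (log2 difference 2.26, SE 0.358, adjusted p = 0.00324), while Usp18, which removes ISG15 from proteins and damps interferon signalling, went from 20.7 and 24.1 to 1.55 and 1.62 (log2 difference -3.18, SE 0.378, adjusted p = 0.000721). For each of these genes the groups did not overlap. Among 29 cholesterol and fatty acid synthesis genes 5 rose (median 0.66); none was called without telogen replicate 1 or 2, and 2 were without either activated library or either telogen library at 24 months. Glycolysis genes had 2 higher and 2 lower of 23, with the regulator Pfkfb3 from 1.98 and 2.2 to 8.51 and 8.32 (log2 difference 1.61, SE 0.303, adjusted p = 0.00797). Heat shock and endoplasmic reticulum stress genes had 1 higher of 29, Atf3. The calls of Pfkfb3 and Atf3 were each lost without telogen replicate 1 or telogen replicate 2. That of Atf3 was also lost without activated replicate 1 or 2 or either 24-month telogen library. The glycolysis genes called lower numbered 0 without any 1 of the 4 telogen libraries of both ages and 4 without either epidermis library at 24 months.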
